A study of Caenorhabditis elegans with 36 samples.

Results

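The 9 genes described here encode a lipid transcription factor, its coactivator and the enzymes that supply methyl groups for phosphatidylcholine in Caenorhabditis elegans. They were chosen by name from 27782 counted genes, as sbp-1, mdt-15, the S-adenosylmethionine synthetase genes sams-1, sams-3 and sams-4, the methionine synthase gene metr-1, the folate transporter gene folt-2, and the phosphoethanolamine methyltransferase genes pmt-1 and pmt-2. The choice was made with results of these same libraries known, including the comparisons with DMSO. The values against DMSO are therefore a description, and the adjusted p beside each says only how the difference compared with the spread between libraries.

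Whole-worm RNA-seq was run on 36 libraries of wild-type N2 worms in 9 groups of 4 biological replicates, with total counts between 19253276 and 20455600. Batch 1 held 6 groups. They were DMSO, dhod-1 RNAi given with DMSO, BAY2402234 and brequinar, each at 500 µM, miglustat at 250 µM and terbinafine at 31.5 µM. The 3 groups of batch 2 were teriflunomide at 250 µM, doxycycline at 50 µM and their DMSO control. All worms were treated from the first larval stage to day 1 of adulthood at 20 °C, about 3000 per sample. All plates, those of the controls included, carried 10 µM 5-fluorouracil, a pyrimidine analogue that blocks the folate-dependent enzyme thymidylate synthase, with 2 mM IPTG and carbenicillin. The food was HT115 bacteria with an empty vector (ev), except in the RNAi group, whose bacteria expressed dhod-1 RNAi. BAY2402234, brequinar and teriflunomide inhibit dihydroorotate dehydrogenase, the enzyme that dhod-1 encodes. Terbinafine inhibits squalene epoxidase, miglustat glucosylceramide synthase, and doxycycline mitochondrial translation. Whole worms mix all tissues, so fewer cells of a type and less RNA per cell cannot be told apart.

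As background, methionine synthase remethylates homocysteine with a methyl group carried by folate, and uses vitamin B12. S-adenosylmethionine synthetases then join methionine and ATP into S-adenosylmethionine, the methyl donor of the cell. In nematodes PMT-1 and PMT-2 use it to methylate phosphoethanolamine in steps to phosphocholine, which enters phosphatidylcholine. SBP-1 is the worm homologue of the sterol regulatory element binding proteins and drives genes of fatty acid synthesis. Low phosphatidylcholine is known to activate it, and the Mediator subunit MDT-15 is its coactivator.

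All 9 genes passed the filter on low counts in both batches. Levels are given as CPM scaled by the TMM factors of the batch, in the order of replicates 1 to 4, and each change is a log2 fold change followed by its SE (standard error). A gene is said to have risen or fallen only where edgeR's adjusted p over all genes was below 0.05. In the check of the targeted gene, dhod-1 stood at 58.1, 78.5, 68.2 and 70.8 CPM with RNAi and at 82.7, 79.8, 90.3 and 81.4 CPM in DMSO. Without RNAi it was also low with BAY2402234 (61.6 ± 5.3 CPM, SD, n = 4) and, against 83.37 ± 9.23 CPM in batch 2 DMSO, with doxycycline (54.83 ± 2.28). The log2 difference with RNAi by edgeR was -0.28 (SE 0.08, adjusted p = 0.00482). A two-sided exact permutation test over 4 against 4 libraries depended on the scaling, with p = 0.0286, the smallest possible, under the batch TMM scaling, p = 0.0571 under TMM over all libraries and p = 0.0857 by library size alone. In a principal component analysis of all libraries, replicates 3 and 4 of dhod-1 RNAi lay at -91 and -111 on the second component against -49.1 and -51 for replicates 1 and 2. The first component placed batch 2 DMSO replicate 1 at -71.9, whereas replicates 2 to 4 fell between 17.1 and 25.7. The teriflunomide libraries lay between -100 and -62.3 there, a range that took in this DMSO library. Values given below that lost their call, or moved by over 1.5 times, without RNAi replicates 3 and 4 or without that DMSO library are given both ways. Leaving out the former pair lowered the share of all genes called with dhod-1 RNAi from 61.4% to 32.9%, and leaving out the latter raised that with teriflunomide from 38.8% to 57.2%. These fits of the gene lists were added after seeing the data.

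Against DMSO, doxycycline and BAY2402234 each changed 6 of the 9 genes and terbinafine 0. With terbinafine edgeR called 0.898% of all genes, 0.68% higher, and with miglustat 0.581%, 0.436% higher, where 2 of the 9 rose. With BAY2402234, which changed 46.8% of all genes (23.2% higher, 23.6% lower), 3 of the 9 rose and 3 fell. Brequinar changed 15.7% (5.03% higher, 10.6% lower), and 1 of the 9 fell, while dhod-1 RNAi changed 61.4% (31.3% higher, 30.1% lower), and 2 fell. Doxycycline changed 84.9% (44.8% higher, 40.2% lower), and 4 of the 9 rose and 2 fell. Teriflunomide changed 38.8% (19% higher, 19.7% lower), and 2 rose and 1 fell. As the members were chosen with these comparisons known, nothing is read from the counts. Treatments of a batch share their DMSO libraries. The median of all genes was 0.10 with BAY2402234 and 0.23 with doxycycline, and it was not subtracted from the changes given here.

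**Figure D1:**
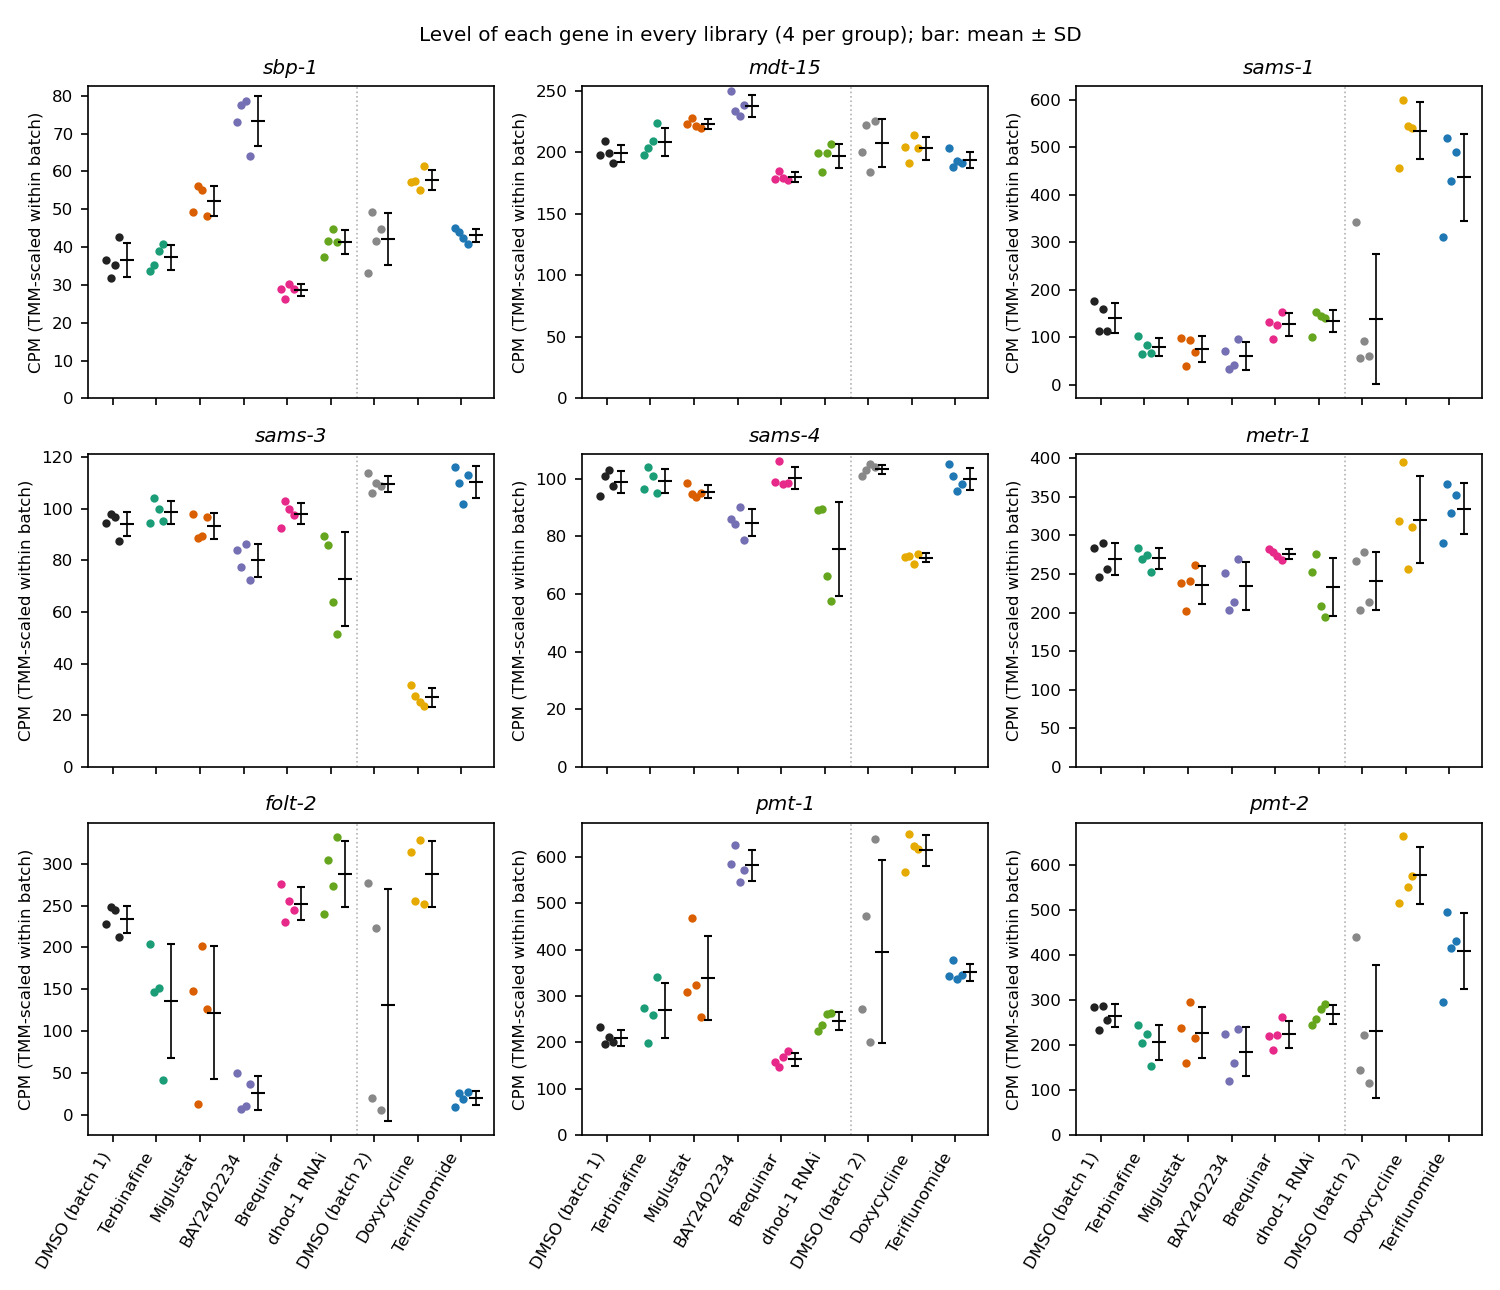
CPM of each of the 9 genes in every library, with the 9 treatment groups on the horizontal axis, the batches divided by a dotted line, and the mean ± SD of 4 libraries as a black bar. folt-2, pmt-1 and sams-1 spread widely among the batch 2 DMSO libraries, from 5.47 to 277, 201 to 638 and 56.8 to 343 CPM.

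sbp-1 (WBGene00004735; chromosome III, 11428367 to 11442566, minus strand, WBcel235), the transcription factor gene, had its highest level with BAY2402234. It stood at 36.5, 31.8, 35.3 and 42.8 CPM in batch 1 DMSO and at 73, 77.6, 78.6 and 64.1 CPM with BAY2402234. The groups did not overlap, and sbp-1 rose 2.00-fold (log2 1.00, SE 0.09, adjusted p = 3.59e-07). Intestine markers took 0.531% to 0.773% of the counts in these libraries against 0.358% to 0.459% in DMSO, with 5 of 12 markers called higher and 2 lower. Oocyte and germ line markers took 1.17% to 1.18% against 1.43% to 1.52%, with 12 of 17 lower, no marker of either list was at 0 counts, and their part in the result was not tested. Miglustat gave 49.2, 56.1, 55.1 and 48.3 CPM, again all above DMSO, and sbp-1 rose by 0.51 (SE 0.09, adjusted p = 0.00704), a call lost without DMSO replicate 2 (adjusted p = 0.0573) and with these 2 groups fitted alone (adjusted p = 0.0628). With brequinar, the other inhibitor given at 500 µM, it stood at 29, 26.4, 30.3 and 28.9 CPM, all below DMSO. sbp-1 fell there by 0.35 on the log2 scale (SE 0.09, adjusted p = 0.0118), and the call was lost without DMSO replicate 4 (adjusted p = 0.0536). Intestine markers took 0.211% to 0.265% with brequinar and muscle markers 0.374% to 0.421%, against 0.507% to 0.654% for muscle in DMSO, with 5 of 12 and 9 of 10 called lower. Their part in the fall was not tested.

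Terbinafine left sbp-1 at 33.7, 35.3, 39.1 and 40.9 CPM, inside the DMSO range at 0.03 (SE 0.09, adjusted p = 0.954). dhod-1 RNAi gave 37.4, 41.7, 44.9 and 41.4 CPM, which overlapped DMSO and did not pass (0.18, SE 0.09, adjusted p = 0.0936). It did pass without DMSO replicate 4 (adjusted p = 0.0235), with the stricter filter on low counts (0.28, adjusted p = 0.0153) and with all libraries in one fit (adjusted p = 0.0475). In order of mean level, batch 1 ran from brequinar (28.66 ± 1.6 CPM) through DMSO (36.58 ± 4.59), terbinafine (37.26 ± 3.35), dhod-1 RNAi (41.36 ± 3.07) and miglustat (52.18 ± 3.97) to BAY2402234 (73.33 ± 6.59; SD, n = 4 each). DMSO, terbinafine and dhod-1 RNAi were not set apart by their spread.

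In batch 2, sbp-1 stood at 33.1, 49.2, 41.6 and 44.9 CPM in DMSO and at 57.3, 57.4, 55.2 and 61.5 CPM with doxycycline. It rose with doxycycline by 0.46 (SE 0.10, adjusted p = 0.00119), with no overlap under the batch scaling but an overlap under TMM over all libraries. The rise was 0.24 (adjusted p = 0.025) with all libraries in one fit and 0.76 with the stricter filter. Intestine markers took 1.09% to 1.19% of the counts with doxycycline against 0.424% to 0.543% in DMSO. Oocyte and germ line markers took 0.162% to 0.213% against 1.17% to 1.49%, and the part of both lists in the rise was not tested. Teriflunomide gave 45.1, 43.9, 42.5 and 40.9 CPM, inside the DMSO range (0.03, SE 0.10, adjusted p = 0.825). The response to teriflunomide was below that to BAY2402234 by 1.06 on the log2 scale (SE 0.14, adjusted p = 6.05e-07), tested as a difference of effects across the batches.

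mdt-15 (WBGene00007016; chromosome III, 5828557 to 5833751, minus strand), the coactivator gene, moved within a narrow range. It stood at 198, 209, 199 and 191 CPM in batch 1 DMSO and at 250, 233, 229 and 238 CPM with BAY2402234, all above DMSO. mdt-15 rose by 0.26 (SE 0.05, adjusted p = 0.000746). Miglustat, at 223, 228, 221 and 220 CPM, also lay above every DMSO library but did not pass (0.16, SE 0.05, adjusted p = 0.192). Brequinar, at 178, 185, 179 and 177 CPM, lay below them and did not pass either (-0.15, SE 0.05, adjusted p = 0.0614), though it passed with the stricter filter (-0.20, adjusted p = 0.0191) and with these 2 groups alone (adjusted p = 0.015). With terbinafine and dhod-1 RNAi the levels overlapped DMSO. Overlapping genes share at most 2.22% of the exonic bases of mdt-15, and it is not given whether the counts used strand.

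With doxycycline mdt-15 stood at 204, 191, 214 and 203 CPM against 200, 222, 184 and 225 CPM in DMSO. The groups overlapped, and the change was -0.03 (SE 0.07, adjusted p = 0.656). Its sign changed with the processing, the cause of which was not tested: the stricter filter gave 0.27 (adjusted p = 0.00284) and one fit of all libraries -0.24 (adjusted p = 0.000199), so no direction is given. The shift was not particular to mdt-15. With doxycycline the stricter filter also gave higher values for sbp-1, sams-4 and pmt-1, and one fit of all libraries a lower one for sbp-1, as given for each gene. The other Mediator subunit genes, which form the rest of the coactivator complex, fell in 28 of 28 cases with doxycycline, with a median of -1.83 where the median of all genes was 0.23. Of all genes, 40.2% fell there. sur-2, rgr-1 and mdt-26, subunit genes of the complex, fell by 2.26, 1.61 and 1.60 on the log2 scale (SE 0.07, 0.05 and 0.05). Oocyte and germ line markers took 0.185% ± 0.0244 of the counts with doxycycline and 1.30% ± 0.141 in DMSO, with 16 of 17 markers lower, and their part in these results was not tested. With BAY2402234, 3 of the 28 rose and 11 fell, and with dhod-1 RNAi 4 rose and 7 fell, among them dpy-22 and let-19 of the kinase module, both higher at 1.23 (SE 0.12) and 0.94 (SE 0.09). With teriflunomide 9 fell and 0 rose. Of all genes, 46.8% changed with BAY2402234, 61.4% with dhod-1 RNAi and 38.8% with teriflunomide. Without replicates 3 and 4, dhod-1 RNAi gave 4 higher and 1 lower, where 32.9% of all genes changed. Without DMSO replicate 1 teriflunomide gave 0 and 15, where 57.2% of all genes changed. Nothing particular to the subunits is read from the counts with these 3 treatments.

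Genes known to process SBP-1 or to work beside MDT-15 were read from a list of 7. Of these, 2 rose and 3 fell with BAY2402234, and 2 rose and 4 fell with doxycycline, where 46.8% and 84.9% of all genes changed. With dhod-1 RNAi nhr-49, nhr-64 and nhr-80 rose and nhr-66 fell, where 61.4% of all genes changed. Without replicates 3 and 4 the list gave 2 higher and 1 lower there, against 32.9% of all genes changed. Nothing particular to the list is read from these counts. nhr-80, a nuclear receptor gene that acts on fatty acid desaturases, rose with BAY2402234 (0.59, SE 0.15), dhod-1 RNAi (1.05, SE 0.15), doxycycline (1.44, SE 0.19) and teriflunomide (1.14, SE 0.19). nhr-66 fell by 2.31 on the log2 scale (SE 0.09) with doxycycline, and scp-1, the gene of the SCAP homologue that escorts the SREBP precursor, by 0.83 (SE 0.05).

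Lipogenic genes that SBP-1 is known to drive gave calls in both directions. Of 16, 5 rose and 6 fell with BAY2402234 (median -0.10), and 11 rose and 2 fell with dhod-1 RNAi (median 0.61). Whether these calls follow the level of sbp-1 was not tested, and nothing particular to the list is read from the counts. Doxycycline gave 10 higher and 2 lower (median 0.73), teriflunomide 9 and 2 (0.43), brequinar 3 and 2 (0.14), and terbinafine and miglustat 0. The medians of all genes were 0.10 with BAY2402234, -0.02 with dhod-1 RNAi and teriflunomide, 0.23 with doxycycline and 0.01 with brequinar, and the shares of all genes changed were those given above, 46.8%, 61.4%, 38.8%, 84.9% and 15.7%. Without replicates 3 and 4, dhod-1 RNAi gave 7 higher and 1 lower (median 0.40), where 32.9% of all genes changed. The stearoyl-CoA desaturase gene fat-7 fell from 3.64 ± 0.486 to 0.742 ± 0.342 CPM with BAY2402234 (-2.30, SE 0.29). It fell from 14.5 ± 13.7 to 0.364 ± 0.159 CPM with teriflunomide (-5.30, SE 0.66), a change of -4.40 without DMSO replicate 1. fasn-1, the fatty acid synthase gene, rose from 210 ± 11.9 to 448 ± 115 CPM with dhod-1 RNAi (SE 0.12 on the log2 scale), and fat-3, a desaturase gene, rose with BAY2402234 (1.14, SE 0.20) and fell with brequinar by 0.74 on the log2 scale (SE 0.21). The ATP citrate lyase gene acly-2 fell with doxycycline by 2.98 on the log2 scale (SE 0.10).

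**Figure D2:**
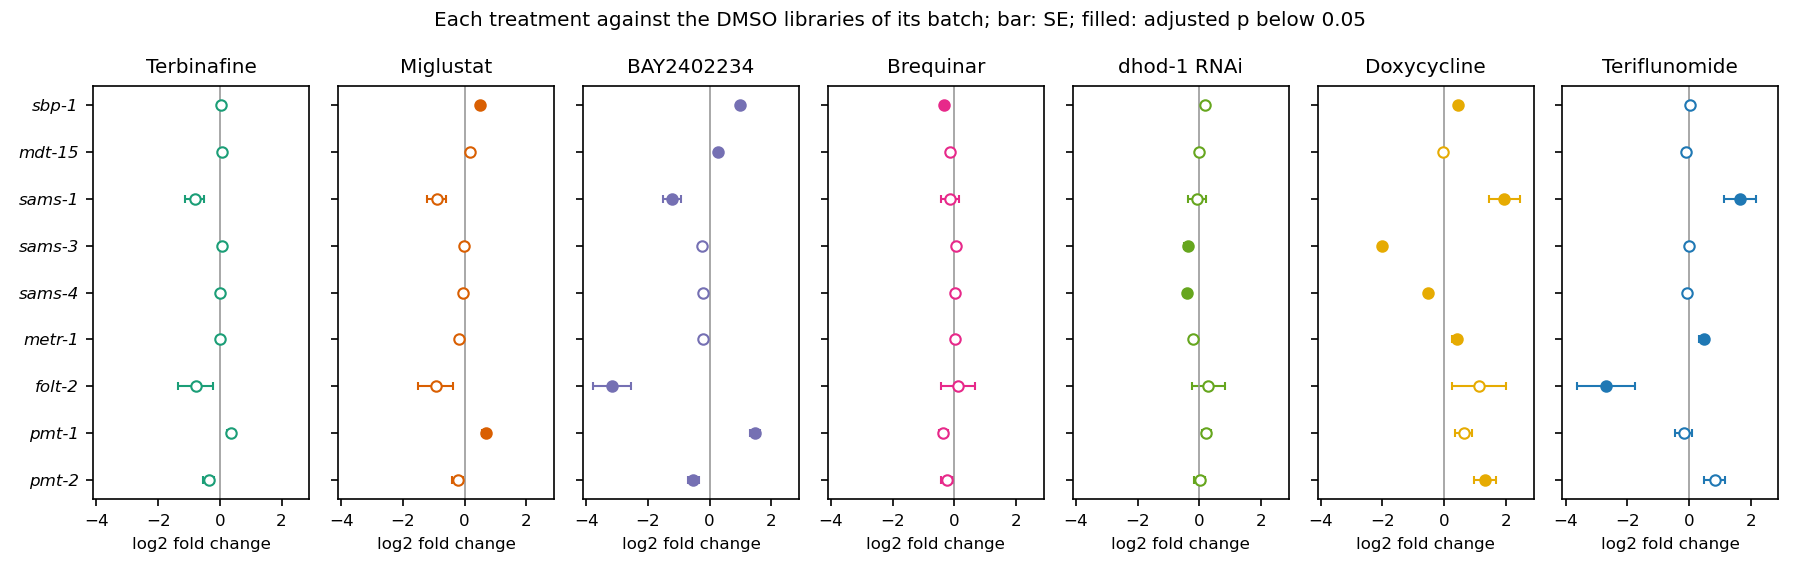
log2 fold change of each gene in each treatment against the DMSO libraries of its batch, with the SE as a horizontal bar, hidden where smaller than the point; filled points had an edgeR adjusted p below 0.05. BAY2402234 and doxycycline each gave 6 filled points and terbinafine gave 0, where 46.8%, 84.9% and 0.898% of all genes were called.

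sams-1 (WBGene00008205; chromosome X, 11965962 to 11969893, plus strand), an S-adenosylmethionine synthetase gene, was higher in both treated groups of batch 2. It stood at 343, 56.8, 92.8 and 61.4 CPM in DMSO and at 456, 599, 544 and 541 CPM with doxycycline. The groups did not overlap, and sams-1 rose 3.86-fold (log2 1.95, SE 0.51, adjusted p = 0.00415). Teriflunomide gave 312, 519, 430 and 489 CPM, which overlapped DMSO through its replicate 1 alone, and sams-1 rose by 1.66 (SE 0.51, adjusted p = 0.0247). That call was lost in 6 of 8 fits with 1 library left out (adjusted p up to 0.065), and without filter on low counts (adjusted p = 0.0556) or with these 2 groups alone (adjusted p = 0.0603). Without DMSO replicate 1 the rises were 2.92 (SE 0.22, adjusted p = 1.45e-07) and 2.64 (SE 0.22, adjusted p = 1.95e-06). Doxycycline and teriflunomide differed by 0.29 (SE 0.49, adjusted p = 0.598), which does not show that they act alike. Muscle markers took 2.11% ± 0.0759 and 0.989% ± 0.0774 of the counts in these groups against 0.536% ± 0.125 in DMSO, and intestine markers 1.15% ± 0.0455 and 0.701% ± 0.0265 against 0.488% ± 0.049. Sperm markers took 0.0511% to 0.0848% with doxycycline and 0.0416% to 0.0579% with teriflunomide. In DMSO they took 0.053% in replicate 1, the library high in sams-1, and 0.00687% to 0.00891% in replicates 2 to 4. The part of these 3 marker lists in the result was not tested.

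In batch 1, sams-1 stood at 176.2, 114.5, 159.5 and 113.9 CPM in DMSO and at 70.8, 32.8, 41.2 and 97 CPM with BAY2402234, all below DMSO. It fell by 1.22 on the log2 scale (SE 0.30, adjusted p = 0.003). Terbinafine gave 104, 64.4, 84.4 and 67.1 CPM, and miglustat 98, 39, 94.1 and 69.8 CPM. All 8 of those libraries lay below every DMSO library, yet neither group passed over all genes (-0.82, SE 0.30, adjusted p = 0.24, and -0.91, SE 0.30, adjusted p = 0.199), although DESeq2 called the miglustat change (adjusted p = 0.0397). Brequinar, at 133, 96.4, 126 and 154 CPM, and dhod-1 RNAi, at 101, 153, 146 and 140 CPM, overlapped DMSO. The effect of teriflunomide on sams-1 exceeded that of BAY2402234 by 2.81 (SE 0.57, adjusted p = 0.000249), of brequinar by 1.82 (SE 0.56, adjusted p = 0.00997) and of dhod-1 RNAi by 1.65 (SE 0.56, adjusted p = 0.0149), and without batch 2 DMSO replicate 1 these were 3.77, 2.78 and 2.61.

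sams-3 and sams-4 are near-identical copies that lie head to head on chromosome IV, sams-4 at 5844061 to 5846369 on the minus strand and sams-3 at 5848657 to 5850843 on the plus strand, 2287 bases apart with the piRNA gene 21ur-432 between them. How reads were divided between these copies and sams-5 is uncertain. In batch 2 DMSO, sams-3 stood at 113.5, 106.4, 109.6 and 109.0 CPM and sams-4 at 101, 103, 105 and 104 CPM. With doxycycline, sams-3 stood at 31.8, 27.4, 25.1 and 23.5 CPM and sams-4 at 72.9, 73.3, 70.3 and 73.7 CPM. Neither overlapped its DMSO range, and sams-3 fell by 2.02 on the log2 scale (SE 0.09, adjusted p = 4.83e-10) and sams-4 by 0.51 (SE 0.04, adjusted p = 2.79e-07). The difference between the 2 falls was not tested. With the counts of sams-3, sams-4 and sams-5 summed, the fall was 0.83 (adjusted p = 1.87e-08), a value that reads given to the wrong copy among the 3 do not change. It may still depend on whether reads shared by the copies were counted, which is not given. The germ line markers given above for doxycycline were lower in these same libraries, with none at 0 counts, and their part in the falls was not tested. With the stricter filter the fall of sams-4 was 0.20. sams-5, a copy at 10.4, 7.15 and 9.9 CPM in 3 DMSO libraries and 26.6 in replicate 1, stood at 30.2, 30.1, 25.9 and 26.3 CPM with doxycycline.

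dhod-1 RNAi gave 89.5, 85.9, 63.9 and 51.6 CPM for sams-3, against 94.3, 97.9, 96.8 and 87.6 CPM in DMSO. For sams-4 it gave 89.3, 89.5, 66.2 and 57.5 CPM, against 93.9, 101, 103 and 97.5 CPM. Replicates 3 and 4 held the low values of both genes, and sams-3 overlapped DMSO while sams-4 did not. sams-3 fell by 0.37 on the log2 scale (SE 0.11, adjusted p = 0.0062) and sams-4 by 0.39 (SE 0.10, adjusted p = 0.00149). Without both replicates the changes were -0.10 (adjusted p = 0.282) and -0.14 (adjusted p = 0.0689), with these 2 groups fitted alone neither passed (adjusted p = 0.0907 and 0.0552), and without replicate 4 alone sams-3 fell by 0.24 (adjusted p = 0.0268). Germ line markers took 1.28%, 1.36%, 0.923% and 0.709% of the counts in these libraries, in the order of replicates, against 1.43% to 1.52% in DMSO, and their part in the falls was not tested. BAY2402234 gave -0.23 (SE 0.11, adjusted p = 0.0844) for sams-3 and -0.22 (SE 0.10, adjusted p = 0.0596) for sams-4, and the other treatments of batch 1 lay between -0.05 and 0.07 for both genes. Teriflunomide left them at 0.01 (SE 0.08) and -0.05 (SE 0.04).

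**Figure D3:**
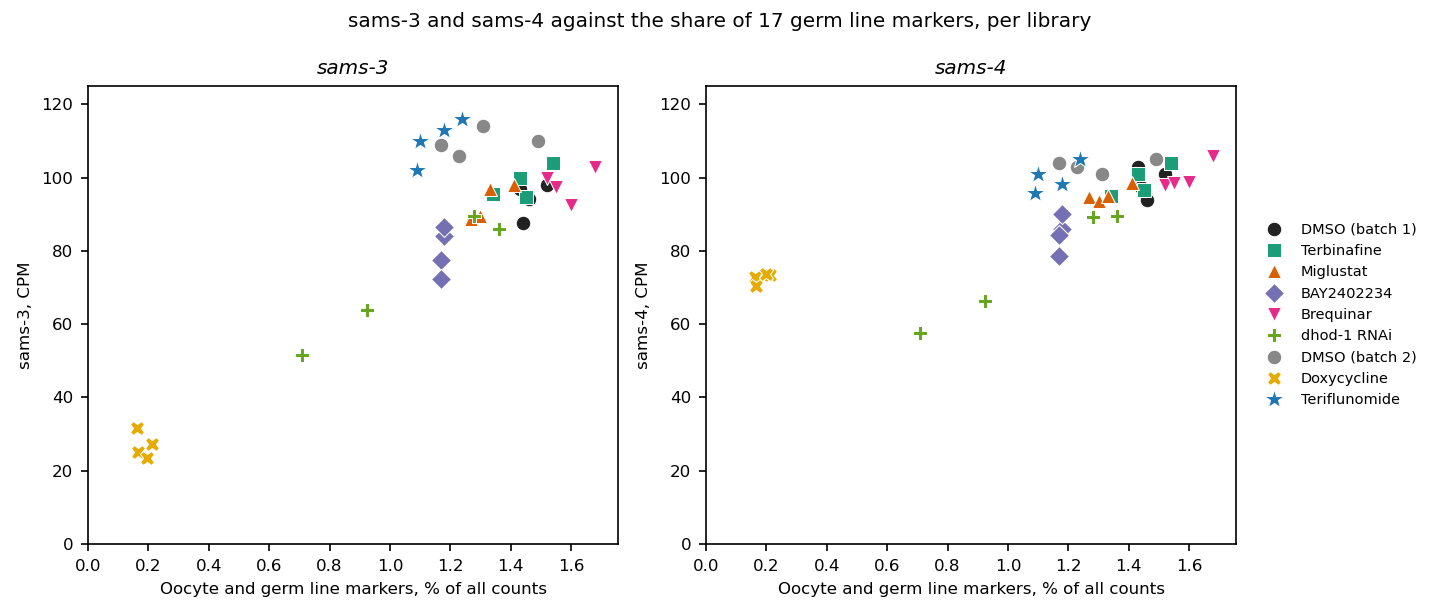
CPM of sams-3 and sams-4 in each library against the percentage of all counts taken by 17 oocyte and germ line markers, with symbols for the 9 groups. The 4 doxycycline libraries lie at 0.162% to 0.213%, and dhod-1 RNAi replicates 3 and 4 lie between them and the rest.

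metr-1 (WBGene00010988; chromosome II, 10926561 to 10931078, plus strand), the methionine synthase gene, was higher in batch 2 treatments. It stood at 267, 204, 278 and 214 CPM in DMSO, at 319, 395, 257 and 311 CPM with doxycycline and at 290, 367, 329 and 353 CPM with teriflunomide. Only the teriflunomide libraries all lay above DMSO. metr-1 rose by 0.41 with doxycycline (SE 0.14, adjusted p = 0.0148) and by 0.48 with teriflunomide (SE 0.14, adjusted p = 0.0181). Neither held with DESeq2 (adjusted p = 0.145 and 0.0872), and calls were also lost with single libraries left out (1 of 8 and 3 of 8 fits). The markers given for sams-1 moved in these same groups, and their part in the rises was not tested. In batch 1 no treatment passed against DMSO, with changes between -0.21 and 0.03. The lowest, with dhod-1 RNAi, passed in 3 of 8 fits with 1 library left out, and that with BAY2402234 in 1 of 8.

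folt-2 (WBGene00018138; chromosome V, 2872465 to 2875600, minus strand), the folate transporter gene, had the highest ratio of its highest to its lowest level among the 9 genes (332 and 5.47 CPM). It stood at 228, 248, 245 and 213 CPM in batch 1 DMSO and at 49.9, 7.21, 11.1 and 36.5 CPM with BAY2402234, with no overlap. folt-2 fell by 3.16 on the log2 scale (SE 0.61, adjusted p = 0.000541), an 8.92-fold lower level. Brequinar, at 276, 230, 256 and 245 CPM, and dhod-1 RNAi, at 240, 305, 273 and 332 CPM, overlapped DMSO. Terbinafine gave 204, 147, 151 and 41.6 CPM, and miglustat 148, 13, 202 and 126 CPM. All 8 lay below DMSO, with 1 far lower library in each group, and neither passed (-0.78, SE 0.56, adjusted p = 0.599, and -0.94, SE 0.56, adjusted p = 0.689).

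The batch 2 DMSO libraries fell apart for folt-2, at 277, 20, 223 and 5.47 CPM. Their range took in every BAY2402234 level given above for batch 1. Teriflunomide stood at 8.87, 26.5, 18.7 and 27.2 CPM and doxycycline at 314, 256, 329 and 252 CPM. folt-2 fell 6.48-fold with teriflunomide (SE 0.94 on the log2 scale, adjusted p = 0.0424), although the groups overlapped, and 6 of 8 fits with 1 library left out lost the call (adjusted p up to 0.109), as did the fit without filter (adjusted p = 0.0899). Without DMSO replicate 1 the level was 4.08-fold lower (SE 0.99 on the log2 scale, adjusted p = 0.109). Doxycycline did not pass against DMSO (1.13, SE 0.88, adjusted p = 0.246), also without that library (1.79, SE 1.00, adjusted p = 0.12). Doxycycline and teriflunomide did not overlap and differed by 3.83 (SE 0.98, adjusted p = 0.00456).

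pmt-1 (WBGene00022781; chromosome II, 5278090 to 5282523, minus strand) encodes the enzyme of the first methylation. It stood at 234, 196, 211 and 200 CPM in batch 1 DMSO and at 585, 626, 546 and 571 CPM with BAY2402234. The groups lay far apart, and pmt-1 rose 2.77-fold (log2 1.47, SE 0.15, adjusted p = 9.35e-07). The intestine and germ line markers given for sbp-1 with BAY2402234 moved in these same libraries, and their part in the rise was not tested. Miglustat gave 309, 468, 324 and 254 CPM, all above DMSO, and pmt-1 rose by 0.69 (SE 0.14, adjusted p = 0.0249). This call was lost in 4 of 8 fits with 1 library left out, up to adjusted p = 0.151 without miglustat replicate 2. Terbinafine, at 275, 199, 260 and 342 CPM, brequinar, at 157, 147, 169 and 181 CPM, and dhod-1 RNAi, at 224, 237, 261 and 264 CPM, did not pass (0.36, -0.36 and 0.23).

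In batch 2, pmt-1 stood at 273, 472, 201 and 638 CPM in DMSO, the 2 libraries low in folt-2 being the 2 high in pmt-1. That DMSO range took in every BAY2402234 level given above for batch 1. Doxycycline gave 567, 648, 624 and 617 CPM and teriflunomide 344, 378, 337 and 345 CPM. Doxycycline was at 0.63 (SE 0.28, adjusted p = 0.0504) and passed without DMSO replicate 4 (0.95, SE 0.22, adjusted p = 0.00247), by DESeq2 (0.55, adjusted p = 0.0386) and with the stricter filter (0.94, adjusted p = 0.00826). Teriflunomide was at -0.17 (SE 0.28, adjusted p = 0.628). The response of pmt-1 to teriflunomide was below that to BAY2402234 by 1.73 (SE 0.30, adjusted p = 3.06e-05).

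pmt-2 (WBGene00018811; chromosome V, 4628580 to 4635263, plus strand) encodes the enzyme of the later methylations. It stood at 284, 234, 288 and 257 CPM in batch 1 DMSO and at 225, 121, 160 and 236 CPM with BAY2402234. The ranges touched, and pmt-2 fell by 0.52 (SE 0.18, adjusted p = 0.0256), a call lost in 4 of 8 fits with 1 library left out (adjusted p up to 0.0864) and with a stricter filter (-0.38, adjusted p = 0.113). pmt-1 and pmt-2 thus had opposite signs with BAY2402234. In batch 2, pmt-2 stood at 441, 144, 222 and 116 CPM in DMSO, at 517, 665, 552 and 575 CPM with doxycycline and at 295, 495, 416 and 432 CPM with teriflunomide. It rose 2.50-fold with doxycycline (log2 1.32, SE 0.35, adjusted p = 0.0046). The germ line, muscle, intestine and sperm markers given above for doxycycline moved in these same libraries, and their part in the rise was not tested. Teriflunomide was at 0.83 (SE 0.35, adjusted p = 0.0813), and passed without DMSO replicate 1 (1.36, SE 0.23, adjusted p = 0.000449) and with all libraries in one fit (0.81, adjusted p = 0.0139). Batch 1 treatments other than BAY2402234 did not pass, with changes from -0.36 to 0.02.

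Treatments of one batch were also compared directly. Between BAY2402234 and brequinar, both at 500 µM, sbp-1 was higher with BAY2402234 by 1.35 (SE 0.09, adjusted p = 9.76e-10) and pmt-1 by 1.83 (SE 0.15, adjusted p = 6.78e-09), and folt-2 lower by 3.27 (-3.27, SE 0.61, adjusted p = 0.000152). In all, 3 of 9 were higher and 5 lower, where 33.2% and 30.2% of all genes were (63.4% together), and sams-3, sams-4 and metr-1 lost their calls in several fits, with adjusted p up to 0.0777, 0.127 and 0.176 with 1 library left out. Against dhod-1 RNAi, BAY2402234 was higher for sbp-1 (0.83, SE 0.09) and pmt-1 (1.24, SE 0.15) and lower for folt-2 (-3.46, SE 0.62), and 3 of 9 were higher and 3 lower where 19.6% and 24.5% of all genes were (44.1% together). Without RNAi replicates 3 and 4, 5 of 9 differed where 35.1% of all genes did, and pmt-2 did not pass (-0.45, adjusted p = 0.154). Brequinar and dhod-1 RNAi differed in 6 of 9, where 64.3% of all genes did (27.9% higher, 36.4% lower), and sbp-1 was lower with brequinar (-0.53, SE 0.09, adjusted p = 4.78e-05). Without RNAi replicates 3 and 4, 3 of 9 differed where 38.1% of all genes did. Doxycycline was above teriflunomide in 3 of 9 and below it in 2, where 36.3% and 37.9% of all genes were (74.2% together).

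The effects of teriflunomide in batch 2 and of the inhibitors in batch 1 were compared as differences of effects. Teriflunomide and BAY2402234 differed in 6 of 9 genes where 36.9% of all genes did (13.4% higher, 23.5% lower). Against brequinar 5 differed (45.2% of all genes, 24.4% higher and 20.9% lower) and against dhod-1 RNAi 4 (52.0%, 23.4% higher and 28.6% lower). Without batch 2 DMSO replicate 1 the count against brequinar was 3, and without RNAi replicates 3 and 4 that against dhod-1 RNAi was 3. The shares of all genes given here belong to the fit with all libraries. folt-2 differed from brequinar and dhod-1 RNAi, at -2.79 (SE 1.04, adjusted p = 0.0303) and -3.06 (SE 1.04, adjusted p = 0.0155), and both calls were lost without batch 2 DMSO replicate 1 (adjusted p = 0.0854 and 0.0508). Doses differ between these compounds, so the size of a difference belongs to these doses.

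Of the 5 genes most like folt-2 in level, 2 belong to the propionate shunt. Shunt genes break down propionate without vitamin B12, the cofactor of methionine synthase, and are repressed when it is plentiful. By Pearson correlation of log2(CPM + 1), centred on the DMSO mean of the batch, over 36 libraries and 7085 named genes, folt-2 was most like the shunt genes hphd-1 (0.940) and ech-6 (0.930). hphd-1, the 3-hydroxypropionate transhydrogenase gene, stood at 157, 149, 176 and 163 CPM in batch 1 DMSO and at 115, 29.3, 49.5 and 88.4 CPM with BAY2402234. In batch 2 it stood at 285, 85.1, 236 and 57.7 CPM in DMSO, with the same 2 libraries low as for folt-2. The next most like were dhs-25 (0.903), pmp-5 (0.860) and the yolk gene vit-1 (0.848). Of the 5 shunt genes, 0 rose and 4 fell with BAY2402234 (median -0.80), and 4 rose and 0 fell with doxycycline (median 0.90). With teriflunomide 0 rose and 1 fell (median -0.50). The shares of all genes changed were 46.8% with BAY2402234, 84.9% with doxycycline and 38.8% with teriflunomide. Nothing particular to the shunt is read from the counts. hach-1 also fell with dhod-1 RNAi, by 0.50 on the log2 scale (SE 0.13, adjusted p = 0.00184), a call lost without replicates 3 and 4. No shunt gene passed with brequinar. acdh-1, the acyl-CoA dehydrogenase gene of the shunt, fell from 570 ± 41.7 to 166 ± 104 CPM with BAY2402234 (-1.78, SE 0.41, adjusted p = 0.00195). It fell from 410 ± 188 to 51.9 ± 33.1 CPM with teriflunomide (-2.98, SE 0.48, adjusted p = 0.000762). The other 4 did not pass there, at -1.08 for hphd-1, -0.50 for hach-1, -0.15 for alh-8 and -0.10 for ech-6 (adjusted p from 0.072 to 0.795). The libraries share treatments and batches, so these correlations are a description and carry no p.

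**Figure D4:**
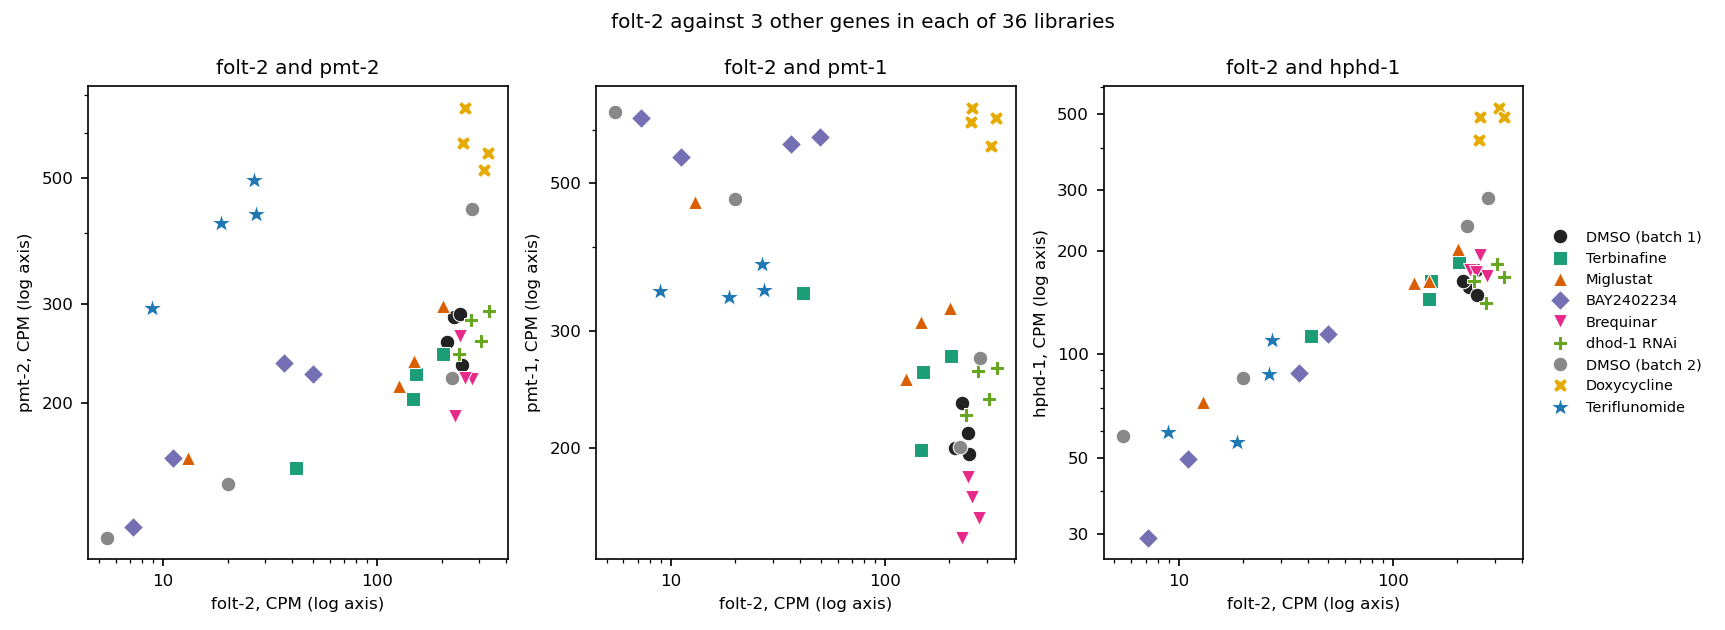
CPM of pmt-2, pmt-1 and hphd-1 against folt-2 in each of 36 libraries, all axes logarithmic, with symbols for the 9 groups. In BAY2402234 replicate 2, folt-2 was at 7.21, hphd-1 at 29.3 and pmt-1 at 626 CPM.

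sams-1 was most like pmt-2 (0.965), gst-26, a glutathione S-transferase gene (0.964), aat-4, an amino acid transporter gene (0.963), acox-1.4, an acyl-CoA oxidase gene (0.960) and abhd-3.2 (0.956). pmt-2 was most like twk-42 (0.968), gst-26 (0.968) and sams-1 (0.965), then cah-5 (0.963) and mct-3 (0.960). sbp-1 was most like clec-83 (0.922), pqn-92 (0.920), tsct-1 (0.908), fbxa-127 (0.905) and pmt-1 (0.896). Under each of the other 2 scalings tried for display, 4 or 5 of the 5 neighbours were shared for each gene but their order changed, except that for folt-2 by library size alone it did not. hphd-1 stayed the most like folt-2 under all 3.

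Within the treatment groups, some pairs of the 9 genes varied together or in opposite directions from library to library. This was examined because folt-2 and pmt-1 had been seen to differ between the same batch 2 DMSO libraries, so it is no independent test. Deviations from group means were correlated over 36 libraries for all 36 pairs, with p from 100000 permutations within groups, adjusted by Benjamini-Hochberg. Of the 36 pairs, 12 passed by both coefficients, 7 of them positive and 5 negative, and over the 32 libraries outside batch 2 DMSO, a set chosen after seeing the data, 9 did. Pairs of genes outside the 9 were not examined, so no share over all genes stands beside these counts. Nothing particular to the 9 genes is read from them. The pairs given here were picked after their values were seen. sams-1 and pmt-2 gave Pearson r = 0.93 and Spearman rho = 0.88 (permutation adjusted p = 0.00036 for both). The value was 0.89 within batch 1, 0.96 within batch 2, 0.90 over the 32 libraries outside batch 2 DMSO and 0.89 without the 2 libraries farthest from the median of sams-1. folt-2 and pmt-2 gave r = 0.87 and rho = 0.75 (permutation adjusted p = 0.00036 and 0.002), with 0.86 and 0.87 in the batches and 0.84 without the 2 farthest libraries. sams-1 and folt-2 gave r = 0.77 and rho = 0.72 (permutation adjusted p = 0.0017 and 0.00096), with 0.79 and 0.76 in the batches and 0.73 without the 2 farthest libraries. folt-2 and pmt-1, the pair that prompted the question, gave r = -0.78 and rho = -0.45 with the prompting libraries included. There r passed but rho did not (permutation adjusted p = 0.027 and 0.092). For this pair r was -0.60 in batch 1, -0.91 in batch 2 and -0.65 without the 2 farthest libraries. Over the 32 libraries outside batch 2 DMSO the pair gave r = -0.55 and rho = -0.22, and neither passed (permutation adjusted p = 0.16 and 0.43). mdt-15 and metr-1 gave r = -0.65 and rho = -0.57 (permutation adjusted p = 0.0055 and 0.017), with -0.36 and -0.89 in the batches and -0.61 without the 2 farthest libraries, but outside batch 2 DMSO rho did not pass (permutation adjusted p = 0.022 for r and 0.11 for rho). sams-3 and sams-4 gave r = 0.87 and rho = 0.75 (permutation adjusted p = 0.00072 and 0.00096), but 0.96 within batch 1, 0.28 within batch 2 and 0.72 without the 2 farthest libraries.

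The other genes of the methionine and folate cycles gave calls in both directions. Of 21 tested, 5 rose and 8 fell with BAY2402234, 10 rose and 6 fell with dhod-1 RNAi, 15 rose and 4 fell with doxycycline, and 7 rose and 2 fell with teriflunomide. Brequinar gave 2 and 2, and terbinafine and miglustat 0. Of all genes, 46.8% changed with BAY2402234, 61.4% with dhod-1 RNAi, 84.9% with doxycycline, 38.8% with teriflunomide and 15.7% with brequinar. Without replicates 3 and 4, dhod-1 RNAi gave 9 higher and 3 lower, and without DMSO replicate 1 teriflunomide gave 11 and 2. In these 2 fits 32.9% and 57.2% of all genes changed. tyms-1, the gene of thymidylate synthase, which 5-fluorouracil blocks on all plates, rose with brequinar (0.54, SE 0.09) and dhod-1 RNAi (0.92, SE 0.09) and fell with doxycycline by 2.09 on the log2 scale (SE 0.10). cth-1, a cystathionine lyase gene, rose from 22.6 ± 2.64 to 45.6 ± 3.07 CPM with BAY2402234 (1.01, SE 0.21) and to 70.3 ± 23 CPM with dhod-1 RNAi (1.63, SE 0.21). ahcy-1, which encodes the enzyme that clears S-adenosylhomocysteine, rose from 977 ± 264 to 1680 ± 263 CPM with teriflunomide (0.78, SE 0.17).

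A further list held 18 tested genes of phospholipid synthesis, those of the Kennedy pathway, the route to phosphatidylcholine that starts from choline and bypasses the methylations, and other head group enzymes. With dhod-1 RNAi 9 rose and 6 fell, with teriflunomide 7 rose and 2 fell, with BAY2402234 4 rose and 7 fell, and with doxycycline 8 rose and 9 fell. Of all genes, 61.4%, 38.8%, 46.8% and 84.9% changed in these comparisons, and nothing particular to the list is read from the counts. Without replicates 3 and 4, dhod-1 RNAi gave 7 higher and 3 lower, where 32.9% of all genes changed. pcyt-1, the gene of the rate-limiting enzyme of that route, rose from 34.9 ± 3.66 to 51.7 ± 12.6 CPM with brequinar (0.57, SE 0.16), to 102 ± 23.7 CPM with dhod-1 RNAi (1.54, SE 0.16) and, from 36.9 ± 7.75, to 121 ± 11.2 CPM with teriflunomide (1.71, SE 0.13). ckb-2, a choline kinase gene, rose with dhod-1 RNAi (1.26, SE 0.17) and teriflunomide (1.88, SE 0.20). With BAY2402234 ckb-4 rose by 0.60 (SE 0.14) and the choline kinase gene ckc-1 fell by 0.60 (-0.60, SE 0.16).

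Per kilobase of exon, which allows genes to be compared, the level in batch 1 DMSO was highest for pmt-2 (169 ± 16.2 CPM per kb) and folt-2 (142 ± 9.74), then pmt-1 (112 ± 9.16). It was lowest for sbp-1 (10.8 ± 1.35). sams-1 stood at 62.5 ± 14.1, sams-4 at 52.3 ± 2.1 and sams-3 at 47.2 ± 2.3 CPM per kb, and the lowest sams-1 library (50.5) lay above every sams-3 library but inside the range of sams-4 (49.7 to 54.4). With doxycycline sams-1 reached 237 ± 26.2 CPM per kb where sams-3 stood at 13.5 ± 1.81. How reads were divided among sams-3, sams-4 and sams-5 is uncertain, as given above, and so are the places of sams-3 and sams-4 beside sams-1.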

How the data were processed

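The authors deposited raw counts per gene for 36 libraries, and these were analysed unchanged. The submitters' processing notes name FastQC, STAR 2.7.3a, DESeq2 1.40.2 and the build WBcel235. How reads were counted, with or without strand, is not given in the sources used here. Genes were named from a reference table and placed with the WBcel235 annotation.

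Each batch was fitted with edgeR 4.0.16 in R 4.3.3 (quasi-likelihood F test, robust, TMM, filterByExpr with a minimum count of 10), p-values being adjusted over all genes with a threshold of 0.05. Differences between batches used one fit of all libraries. SE came from the fold change and F. DESeq2 1.42.0 was the second tool. The edgeR procedure was also run on simulated data in which few genes were changed, in both directions. Such data cannot check the scaling where most genes change, as with doxycycline.

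The members and lists were chosen with earlier results of these data known. Genes outside the 9 were named as up to 3 per list and comparison by smallest p, with libraries apart from DMSO. fpgs-1, arf-1.1, arf-1.2, mdt-1.1 and ssp-11 were not matched. The CPM scaling for display was chosen after values had been seen: library size alone and TMM over all libraries were used before TMM within the batch, which is that of the tests. The edgeR results did not depend on this, but whether 2 groups overlapped did in 13 of 99 cases. The likeness rule left out genes named only by their clone. Replicates are biological per the labels, and all pairs within a group differed beyond sampling noise (lowest chi-square per degree of freedom 3.57).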

Additional observations from a re-analysis of the deposited data

Results flagged for a closer look

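Each gene was searched in each group for a library far from the other 3, 81 groups in all, of which chance alone flags about 1 in 20. In batch 2 DMSO, sams-1 stood at 343 CPM in replicate 1 and at 56.8 to 92.8 CPM in the other 3. With brequinar, sams-4 stood at 106 CPM in replicate 2 and at 98.1 to 98.9 CPM in the others. The set of such libraries changed with the scaling, which was chosen after values had been seen. By library size alone 3 were found, with sams-1 at 97.8 CPM in dhod-1 RNAi replicate 1 and pmt-1 at 357 CPM in teriflunomide replicate 2 beside sams-1 in DMSO. TMM over all libraries gave 2, with sams-4 at 100 CPM in miglustat replicate 1 in place of the brequinar library. Of these, 1 appeared under all 3 scalings, sams-1 in batch 2 DMSO replicate 1.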

How the results depend on the processing

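Counts of the 9 genes called stayed within 1.5 times the value reported, except as follows. With the stricter filter miglustat gave 1, brequinar 2, BAY2402234 against brequinar 5, and teriflunomide minus brequinar 3. With the 2 groups alone miglustat gave 0, brequinar 3 and teriflunomide 1. Without filter BAY2402234 against brequinar gave 5, teriflunomide 1 and teriflunomide minus brequinar 2, and DESeq2 and its size factors in edgeR both gave 3 for the last. One fit of all 36 libraries, added after seeing the data, gave 1 for miglustat, 2 for brequinar and 5 for BAY2402234 against brequinar. Without dhod-1 RNAi replicates 3 and 4, also added later, RNAi gave 0 and brequinar against RNAi 3, where 32.9% and 38.1% of all genes were called. The cause was not tested. With 1 library left out, counts ran from 0 to 0 for terbinafine, 0 to 2 for miglustat, 5 to 7 for BAY2402234, 0 to 1 for brequinar, 2 to 3 for dhod-1 RNAi, 5 to 7 for doxycycline and 0 to 3 for teriflunomide. Direct contrasts gave 5 to 7 for BAY2402234 against brequinar and against dhod-1 RNAi, 4 to 6 for brequinar against dhod-1 RNAi and 5 to 5 for doxycycline against teriflunomide. Teriflunomide minus BAY2402234 gave 6 to 6, minus brequinar 3 to 5 and minus dhod-1 RNAi 3 to 6. mdt-15 with doxycycline reversed, from -0.03 to 0.27 with the stricter filter. Another 73 changes of sign were between values that passed under neither setting. For doxycycline, the all-gene median was 0.15 with the stricter filter and 0.12 with the size factors of DESeq2. Over all genes, terbinafine gave 136 calls and 241 by DESeq2, and miglustat 88 and 274 by DESeq2, 51 with the stricter filter and 39 with the 2 groups alone. Brequinar gave 2370 and 3749 with the 2 groups alone, and dhod-1 RNAi 9295 and 5132 without replicates 3 and 4. Replicate numbers did not pair the samples: correlations of same-numbered deviations ran from -0.472 to 0.517 in batch 1 and from -0.477 to 0.1 in batch 2. With the replicate block the counts were 7 for BAY2402234, 7 for doxycycline, 2 for teriflunomide, 1 for brequinar, 2 for miglustat and 0 for terbinafine, and folt-2 with teriflunomide gave -2.03 (adjusted p = 0.213).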
